A study of Mus musculus with 8 samples.

Results

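The 40 genes described here encode the CD40 and NF-kB signalling pathway of B cells and the activation genes that mark the light zone of the germinal centre. They were chosen by name, with results of earlier work on these libraries known, and all 40 were found in both deposited tables, among 23469 genes. The cells, B220+ FAShigh GL7high germinal centre B cells of C57BL/6 mice, were sorted on day 13 of the response to NP-KLH (a hapten-carrier conjugate). Ctrl mice had the genotype CD19cre/+ Irf8+/+, and Irf8 cKO mice had the genotype CD19cre/+ Irf8flox/flox. Both groups thus carry the same B lineage Cre allele and differ in the loxP-flanked Irf8 alleles. There were 2 experiments with 1 library of either genotype in each, which makes n = 2 for both groups. The age of the mice, and whether 1 library is 1 mouse or a pool, were not given in the sources used here. Of the 8 samples of the study, 4 are B cells stimulated with lipopolysaccharide and were not analysed here.

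CD40 is the receptor through which helper T cells license B cells. It signals through TRAF adaptor proteins to kinases that free NF-kB dimers from their inhibitors. In the classical branch the IKK complex marks IkB proteins for degradation and releases dimers of RelA, c-Rel and p50. In the alternative branch, which the BAFF receptor also feeds, the kinase NIK accumulates, and the p100 precursor is cut to p52, the partner of RelB. NF-kB then switches on its own brakes, such as the IkB proteins and A20, together with survival and costimulatory genes. In the germinal centre this programme, with MYC and the EGR factors, is a feature of light zone cells that have received antigen and T cell signals.

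NF-kB motif letters were found in the promoter windows of several members. RefSeq promoter windows of 300 bases (250 before to 50 after the annotated start, GRCm38.p6) were at hand for 29 of the 40 genes. The NF-kB consensus, searched on both strands, was present in 10 of these 29 windows (34.5%), against 8.18% of 27025 promoter windows of all genes. The 10 were Bcl3, Egr2, Nfkb2, Nfkbia, Nfkbie, Nr4a1, Rel, Tnfaip3, Tnip1 and Traf3. Of these 10, 7 are printed here because they encode NF-kB subunits (Nfkb2, Rel) or IkB proteins and feedback regulators (Nfkbia, Nfkbie, Bcl3, Tnfaip3, Tnip1). Tnfaip3 and Bcl3 also stand at opposite ends of the scaled ratios given further on. Each stretch runs 5′ to 3′ on the strand of the gene, and capitals mark the bases of a consensus match, with overlapping matches merged.

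Nfkbia, minus strand, chr12:55492657-55492736: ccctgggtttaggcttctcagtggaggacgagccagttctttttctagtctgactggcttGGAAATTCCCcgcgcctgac

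Nfkbie, plus strand, chr17:45555534-45555613: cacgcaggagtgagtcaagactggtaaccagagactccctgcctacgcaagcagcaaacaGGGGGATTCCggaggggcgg

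Nfkb2, plus strand, chr19:46304638-46304745: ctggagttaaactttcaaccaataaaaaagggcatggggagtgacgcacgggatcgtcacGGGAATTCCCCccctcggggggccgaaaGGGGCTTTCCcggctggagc

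Rel, minus strand, chr11:23771041-23771121: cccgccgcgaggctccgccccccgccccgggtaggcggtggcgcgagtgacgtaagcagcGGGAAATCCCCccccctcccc

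Tnip1, minus strand, chr11:54962977-54963058: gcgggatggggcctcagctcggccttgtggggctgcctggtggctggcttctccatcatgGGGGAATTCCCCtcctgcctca

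Tnfaip3, minus strand, chr10:19015403-19015595: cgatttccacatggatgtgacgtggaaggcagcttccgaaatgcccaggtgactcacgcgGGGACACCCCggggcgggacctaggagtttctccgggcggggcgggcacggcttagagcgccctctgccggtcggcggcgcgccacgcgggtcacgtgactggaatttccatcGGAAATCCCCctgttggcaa

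Bcl3, minus strand, chr7:19822734-19822813: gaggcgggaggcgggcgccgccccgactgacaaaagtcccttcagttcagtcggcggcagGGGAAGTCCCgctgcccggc

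A match is a description of the letters and not evidence of binding. Nfkb2 and Tnfaip3 each hold 2 separate matches, and the match of Nfkbia lies 29 bases before the annotated start. The stretch of Nfkb2 ends at position 46304745, upstream of the deposited start of that gene at 46305930. Its window thus belongs to a different annotated start. The core of the ETS-IRF composite element, GGAANNGAA, was found in 0 of the 29 windows, against 8.25% of all promoter windows. The core of the interferon-stimulated response element, GAAANNGAA, was found in 2 (Nfkbia and Traf5, 6.90% against 8.57%). The AP-1 motif TGANTCA was found in 7 (24.1% against 7.93%), which include all of Bcl2a1a, Bcl2a1b and Bcl2a1d. The Bcl2a1 genes are near-identical copies that hold the same match, so their windows are not independent and raise the share. All motifs were searched on both strands, no overlap between different motifs was removed, and no match says only that the letters are not in the window.

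Levels are given as RPKM, which divides the reads of a gene by its transcript length and by the depth of the library, so that genes can be compared with each other. In Ctrl, 3 genes stood at 10 RPKM or more, 27 from 1 to 10 and 10 below 1. Their median was 2.13 RPKM. Tnfrsf13c, which encodes the BAFF receptor, was the highest by far at 104 ± 8.25 RPKM (mean ± SD, n = 2), at percentile 99.8 of the genes above 0. Cd40 itself measured 3.91 ± 0.456 RPKM. After Tnfrsf13c came the light zone surface protein gene Cd83 at 12.8 ± 0.982, Rel, which encodes c-Rel, at 12.5 ± 1.84, and the costimulatory ligand gene Cd86 at 8.42 ± 0.0419 RPKM. Cd83 and Rel did not differ beyond their spread.

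The spread between the Ctrl libraries was small for most of the set. For 27 of the 31 genes that entered the test below, the Ctrl values lay within 1.5 times of each other. The share over all genes tested was not counted, so this is not given as a trait of the set. The widest differences were those of Il4i1 and Bcl2a1b. Il4i1, an amino acid oxidase induced by CD40 and IL-4, measured 2.65 and 5.34 RPKM in Ctrl 1 and 2.

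**Figure D1:**
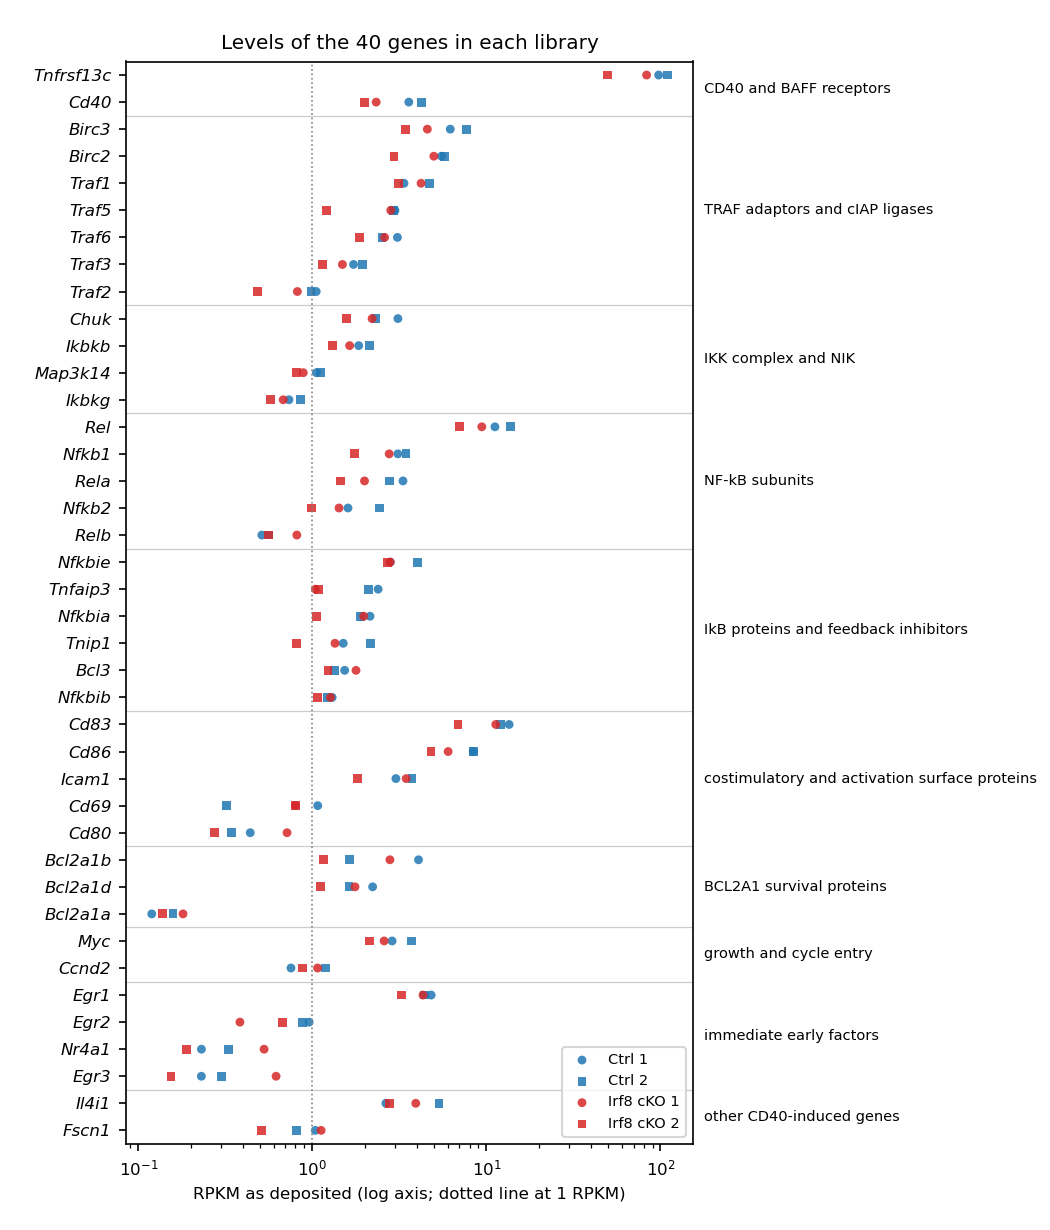
RPKM as deposited (log axis) of the 40 genes, grouped by role, with 1 point per library: blue for Ctrl, red for libraries labelled Irf8 cKO, circles for experiment 1 and squares for experiment 2. Tnfrsf13c lies far above the rest, between 49.4 and 109 RPKM, and the red square of the second experiment is the lowest point for most genes.

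Irf8, the targeted gene, gave 14.5 and 14.9 RPKM for Ctrl against 20.6 and 11.6 as deposited, and 11.9 and 13.1 against 19.4 and 17.1 after median-of-ratios scaling, which divides each library by its typical ratio to the others. The scaled log2 ratio of Irf8 was 0.51 ± 0.17 (SE; limma, Benjamini-Hochberg adjusted p = 0.478), and as deposited it was 0.077 ± 0.35 (adjusted p = 0.880). The level of Irf8 was thus not lower under the Irf8 cKO label after scaling, with both libraries above both Ctrl libraries. The same was so for 13% of all genes tested. The deposited value covers all exons and does not check the genotype labels.

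The Irf8 cKO and Ctrl libraries were compared to see which genes of this programme differ with the Irf8 genotype. No gene of the set passed the test in either direction. Of the 40 genes, 31 reached 1 RPKM in at least 2 libraries and were tested among 6446 genes, on log2(RPKM + 1) with the experiment as a block (limma, Benjamini-Hochberg threshold 0.05). In the RPKM as deposited, 0 of the 31 were lower and 0 higher, against 1.09% lower and 0.0931% higher among all genes tested. At an unadjusted p under 0.05, 5 of the 31 were lower (16.1%) and 0 higher, against 18.6% and 0.264% of all genes tested. The adjusted p of the set ran from 0.191 to 0.981. The authors' deposited tables, which compare 1 library with 1 library, put 1 of the 40 genes under an unadjusted p of 0.05 in experiment 1 (Tnfaip3, against 2.61% of all entries) and 1 in experiment 2 (Cd69, against 2.27%).

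Genes outside the set lay equally far below 0 in these values. The median log2 ratio of the 31 genes was -0.35, and that of all genes tested was -0.35 as well. By experiment the median of the set was -0.12 and -0.57, against -0.18 and -0.51 for all genes tested. After scaling, the median of the set was -0.01 and that of all genes tested -0.04. Scaled, 18 of the 31 lay below 0 and 13 above, where 29 lay below and 2 above as deposited. The scaled ratios of the set spread over an interquartile range of 0.24 on the log2 scale, against 0.30 for all genes tested.

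After scaling, limma called 0 of 6446 genes in either direction (0% lower and 0% higher), with 380 lower (5.9%) and 278 higher (4.31%) at an unadjusted p under 0.05. Of the 31 genes, 0 were among these. The 95% intervals of the scaled ratios all included 0 and all lay between -1 and 1 on log2(RPKM + 1), with half-widths from 0.34 to 0.60. On this scale a ratio understates the change of a gene near 1 RPKM, so the intervals do not bound the fold change of the lowest genes.

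**Figure D2:**
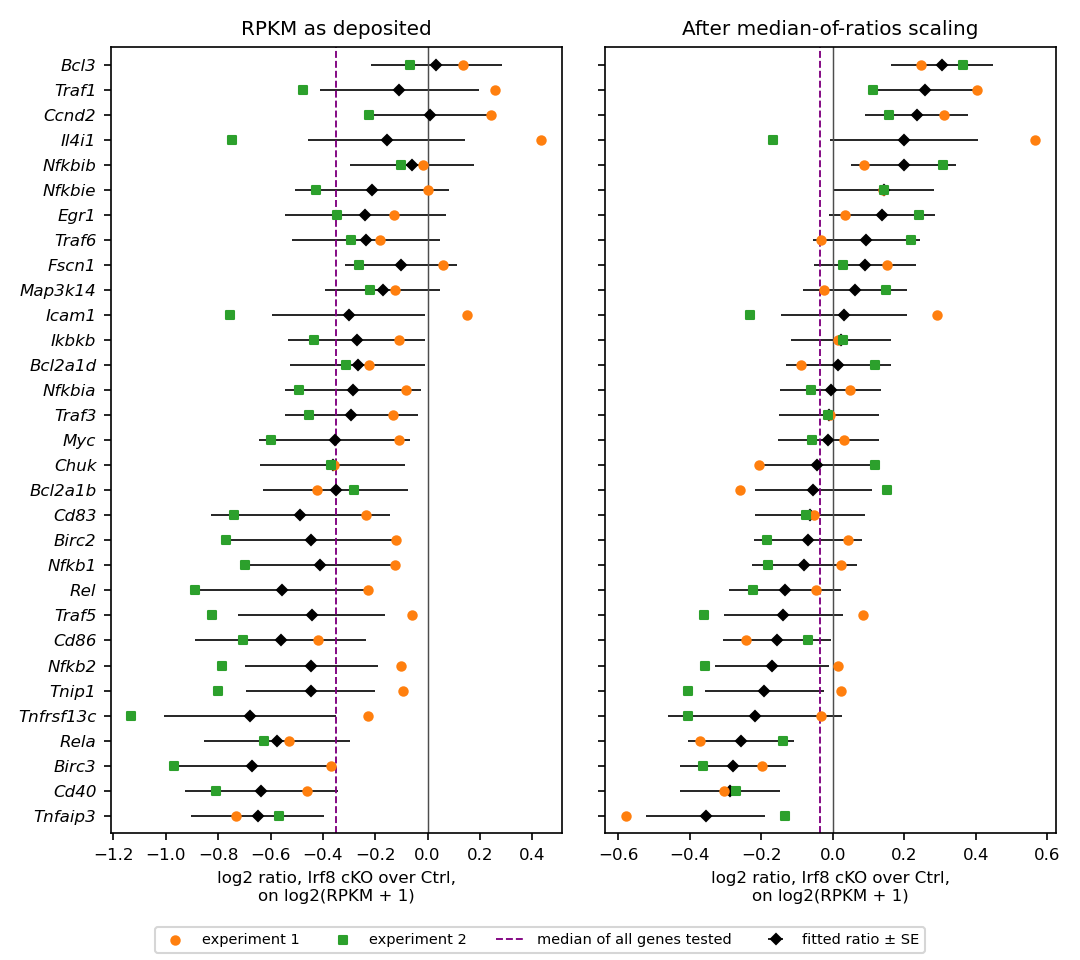
Log2 ratio of Irf8 cKO over Ctrl on log2(RPKM + 1) for the 31 genes tested, as deposited (left) and after median-of-ratios scaling (right). Diamonds with bars are the fitted ratio ± SE (n = 2 per group), circles and squares are experiments 1 and 2, and the dashed line is the median of all genes tested, at -0.35 on the left and -0.04 on the right.

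The receptors had the lowest median ratio of the role groups on both scales (-0.66 as deposited and -0.25 scaled). Cd40 measured 3.58 and 4.23 RPKM in Ctrl 1 and 2, while the libraries labelled Irf8 cKO 1 and 2 gave 2.33 and 1.99. Both libraries labelled Irf8 cKO lay below both Ctrl libraries, as was so for 44.7% of all genes tested. They remained so after scaling, as was so for 18.4% of all genes tested. Its log2 ratio was -0.63 ± 0.29 as deposited (SE; limma, Benjamini-Hochberg adjusted p = 0.238) and -0.29 ± 0.14 once scaled, at adjusted p = 0.539, with -0.30 and -0.27 in the experiments. Tnfrsf13c measured 97.7 and 109 RPKM in Ctrl against 83.2 and 49.4. The log2 ratio of Tnfrsf13c was -0.68 ± 0.33 as deposited (adjusted p = 0.25) and -0.22 ± 0.24 once scaled, at adjusted p = 0.770. By experiment the scaled value was -0.03 and -0.40.

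Of the TRAF adaptors and the ubiquitin ligases that work with them, 6 of 7 were tested and 0 passed. Birc3 and Birc2 encode cIAP2 and cIAP1, which keep NIK low until CD40 or the BAFF receptor is engaged. Birc3 measured 6.20 and 7.70 RPKM in Ctrl against 4.58 and 3.44, with no overlap of the groups as deposited or scaled. The same held for 44.7% of all genes tested as deposited and for 18.4% after scaling. The log2 ratio of Birc3 was -0.67 ± 0.32 as deposited (adjusted p = 0.248) and -0.28 ± 0.15 once scaled, at adjusted p = 0.559, below 0 in both experiments. Its paralog Birc2 measured 5.52 and 5.72 against 4.99 and 2.94 RPKM, and its scaled ratio was -0.07. Traf1, an adaptor that is itself induced by NF-kB, had a ratio above 0 after scaling and below 0 as deposited. It measured 3.36 and 4.73 RPKM in Ctrl against 4.21 and 3.12, so the groups overlapped. The log2 ratio of Traf1 was -0.11 ± 0.30 as deposited (adjusted p = 0.804) and 0.26 ± 0.15 once scaled, at adjusted p = 0.590, with 0.40 and 0.11 in the experiments. Traf5, Traf3 and Traf6 lay at -0.14, -0.01 and 0.09 after scaling. Traf2, below the filter, measured 1.05 and 0.983 against 0.820 and 0.483 RPKM.

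The kinases stood close to the median of all genes. Ikbkb and Chuk, the catalytic subunits of the IKK complex, had scaled log2 ratios of 0.02 and -0.04, and Map3k14, which encodes NIK, of 0.06. As deposited the 3 lay at -0.27, -0.36 and -0.17. Ikbkg, which encodes the regulatory subunit NEMO, stayed between 0.576 and 0.858 RPKM in the 4 libraries and was not tested.

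Among the NF-kB subunits c-Rel was the leading transcript in every library. In Ctrl, Rel at 11.2 and 13.8 RPKM lay above Nfkb1 (p105 and p50) at 3.10 and 3.45 and Rela at 3.32 and 2.77, which overlapped each other. Nfkb2 (p100 and p52) followed at 1.60 and 2.44, and Relb at 0.513 and 0.559 was the lowest. In the libraries labelled Irf8 cKO, Rel measured 9.41 and 7.0 RPKM, and Rela 1.99 and 1.44. The scaled log2 ratio over both experiments was below 0 for the 4 subunits tested, as it was for 3620 of all 6446 genes, at -0.26 ± 0.15 for Rela (adjusted p = 0.586), -0.17 for Nfkb2, -0.13 ± 0.16 for Rel (adjusted p = 0.778) and -0.08 for Nfkb1. In experiment 1 alone Nfkb1 and Nfkb2 lay just above 0 after scaling, at 0.023 and 0.015. As deposited the same genes lay at -0.58, -0.44, -0.56 and -0.41.

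Relb, the subunit of the alternative branch, was not below its Ctrl library in either experiment. Relb, which lay below the filter, measured 0.513 and 0.559 RPKM in Ctrl. The libraries labelled Irf8 cKO gave 0.814 in experiment 1 and 0.560 in experiment 2. Ratios between genes within a library do not change with the scaling of libraries. The ratio of Rel to Relb was 21.8 and 24.7 in Ctrl. Under the Irf8 cKO label it was 11.6 and 12.5. Of the 10 pairs of subunits, the 4 that hold Relb had ratios whose groups did not overlap, and the other 6 overlapped. These 4 share Relb as the denominator, and 86.1% of 6429 tested genes above 0 in every library also had a lower ratio to Relb without overlap. The 4 ratios thus show nothing particular to the subunits set over Relb. Of the other 6 pairs of genes compared within a library, 2 did not overlap, against 32.2% of all pairs of tested genes. Bcl3 over Tnfaip3 was 0.642 and 0.639 in Ctrl against 1.71 and 1.13. Bcl3 had the highest and Tnfaip3 the lowest scaled ratio of the set, and after scaling neither overlapped Ctrl. Their ratio was thus bound not to overlap, and setting it beside the share of all pairs shows nothing further. Cd86 over Cd80 was 19.1 and 24.7 against 8.42 and 17.5. Cd80 lay below the filter, so this pair is not among the pairs of tested genes. About 54.5 and 36.8 estimated reads lay behind Cd80 in Ctrl, with 92.2 and 29.8 under the Irf8 cKO label. Relb was singled out after these values were seen. About 82.6 and 77.8 estimated reads lay behind it in Ctrl, with 136 and 78.7 under the Irf8 cKO label, and the part of counting error in the ratios was not tested.

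**Figure D3:**
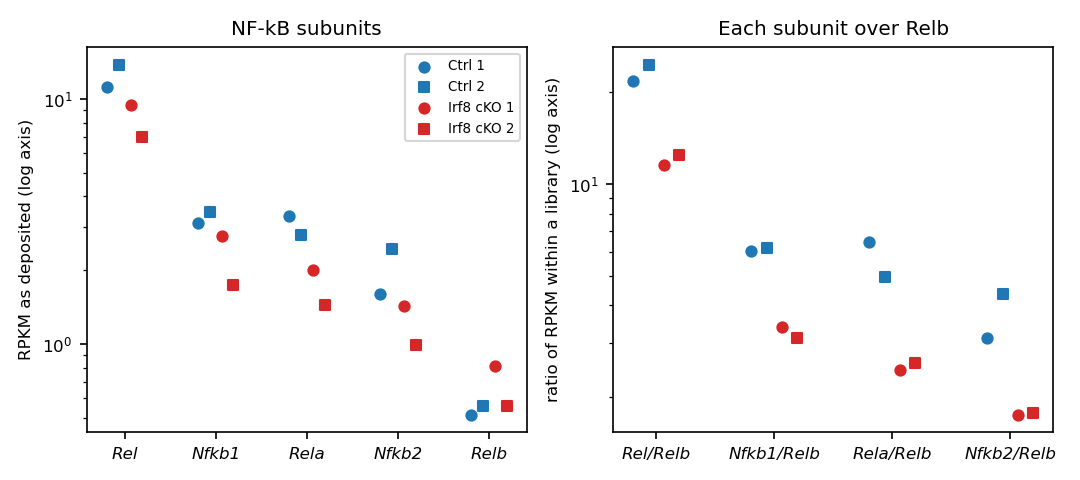
Left, RPKM as deposited (log axis) of the 5 NF-kB subunit genes in each library. Right, RPKM of 4 subunits divided by that of Relb in the same library (log axis), in which both libraries labelled Irf8 cKO (red) lie below both Ctrl libraries (blue) for each subunit, for Rel at 11.6 and 12.5 against 21.8 and 24.7, as was so for 86.1% of tested genes.

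The group of IkB proteins and feedback inhibitors held both ends of the scaled ratios. Tnfaip3, which encodes the ubiquitin-editing brake A20, measured 2.39 and 2.10 RPKM in Ctrl against 1.04 and 1.09 as deposited. After scaling it measured 1.96 and 1.85 against 0.981 and 1.60, so Irf8 cKO 2 by label lay nearer to Ctrl. The groups did not overlap on either scale. Of all genes tested, 44.7% as deposited and 18.4% after scaling were likewise lower without overlap. The log2 ratio of Tnfaip3 was -0.65 ± 0.25 as deposited (adjusted p = 0.191) and -0.36 ± 0.17 once scaled, at adjusted p = 0.531, with -0.58 and -0.13 in the experiments. The authors' deposited table gave Tnfaip3 a log2 ratio of -0.997 in experiment 1 (unadjusted p = 0.0153) and of -0.211 in experiment 2 (unadjusted p = 0.663). The ratios fitted here are on log2(RPKM + 1), which understates the change of a gene near 1 RPKM. The authors' values are thus not directly comparable with them.

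Bcl3, an atypical IkB protein that works in the nucleus with p50 and p52, measured 1.53 and 1.34 RPKM in Ctrl against 1.78 and 1.23. It had the highest log2 ratio of the set on both scales, 0.03 ± 0.25 as deposited (adjusted p = 0.928) and 0.31 ± 0.14 once scaled, at adjusted p = 0.528, with 0.25 and 0.37 in the experiments. Nfkbib and Nfkbie, which encode IkB-beta and IkB-epsilon, also lay above 0 in both experiments after scaling, at 0.20 and 0.14, and below 0 as deposited, at -0.06 and -0.21. Nfkbib measured 1.30 and 1.22 RPKM in Ctrl against 1.27 and 1.07. Nfkbie measured 2.80 and 4.0 against 2.80 and 2.72. Nfkbia, the classical early target that encodes IkB-alpha, stood at -0.0057 after scaling, and Tnip1, a partner of A20, at -0.19.

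The members with and without the NF-kB consensus in the promoter window overlapped in their ratios. The median scaled log2 ratios were -0.07 over the 8 tested genes that hold it (from -0.36 for Tnfaip3 to 0.31 for Bcl3) and 0.02 over 15 that do not. As deposited the medians were -0.37 and -0.30.

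The costimulatory genes that define light zone cells by flow cytometry had ratios near the median of all genes tested. Cd83 measured 13.5 and 12.1 RPKM in Ctrl against 11.3 and 6.86, with a log2 ratio of -0.49 ± 0.34 as deposited (adjusted p = 0.359) and -0.06 ± 0.15 once scaled, at adjusted p = 0.903. Cd86 measured 8.39 and 8.45 RPKM in Ctrl against 6.03 and 4.81. The fitted log2 ratio was -0.56 ± 0.33 from the deposited values (adjusted p = 0.303) and -0.15 ± 0.15 once scaled, at adjusted p = 0.736. Set against Cxcr4, the chemokine receptor of dark zone cells, within each library, Cd83 gave ratios of 0.672 and 1.05 for Ctrl against 0.769 and 0.827. The ratio of Cd86 to Cxcr4 was 0.418 and 0.734 in Ctrl against 0.410 and 0.579. Both ratios differed more between the 2 Ctrl libraries than between the libraries labelled Irf8 cKO.

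Icam1, an adhesion molecule, had opposite signs in the experiments on both scales (0.29 and -0.23 after scaling). Cd80 and Cd69 lay below the filter. Cd80, the second B7 ligand, measured 0.440 and 0.343 RPKM in Ctrl against 0.715 and 0.275. The early activation marker Cd69 measured 1.07 and 0.321 RPKM in Ctrl against 0.799 and 0.798, so that the Ctrl libraries differed from each other more than the libraries labelled Irf8 cKO did. The authors' deposited table gave Cd69 a log2 ratio of -0.221 (unadjusted p = 0.752) in experiment 1 and of 2.04 (unadjusted p = 0.0369) in experiment 2.

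The Bcl2a1 genes encode copies of the NF-kB-induced survival protein A1. They are near-identical copies on chromosome 9, between which reads can be split, so their separate values are uncertain. Bcl2a1b was at 4.07 and 1.63 RPKM in Ctrl, with 2.79 and 1.16 under the Irf8 cKO label, and Bcl2a1d 2.22 and 1.62 against 1.76 and 1.12. Both libraries of experiment 1 lay above both of experiment 2 for Bcl2a1b, and scaled log2 ratios were -0.05 for Bcl2a1b and 0.02 for Bcl2a1d. The order of the 4 libraries by either gene was that of the 13 summed myeloid markers, which came to 80.3 and 10.3 RPKM in Ctrl 1 and 2 against 22.0 and 2.79. The part of those transcripts in the Bcl2a1 values was not tested. The order was shared by 5 of the 31 tested genes (16.1%) and by 25.7% of all genes tested. Bcl2a1a reached at most 0.181 RPKM.

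Myc, the growth regulator that T cell help induces in selected light zone cells, measured 2.87 and 3.72 RPKM in Ctrl against 2.58 and 2.12. The fitted log2 ratio was -0.35 ± 0.29 from the deposited values (adjusted p = 0.421) and -0.01 ± 0.14 once scaled, at adjusted p = 0.983, at the median of all genes on both scales. Ccnd2, which encodes cyclin D2, measured 0.754 and 1.19 RPKM against 1.07 and 0.875. The fitted log2 ratio was 0.0080 ± 0.22 from the deposited values (adjusted p = 0.981) and 0.23 ± 0.14 once scaled, at adjusted p = 0.597.

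Immediate early genes report recent receptor signals. Egr1, the only one of the 4 to be tested, measured 4.81 and 4.42 RPKM in Ctrl against 4.32 and 3.26. The fitted log2 ratio was -0.24 ± 0.31 from the deposited values (adjusted p = 0.591) and 0.14 ± 0.15 once scaled, at adjusted p = 0.757. The direction thus turned with the scaling, with the groups not overlapping on either scale. Of all genes tested, 44.7% were lower without overlap as deposited, and 13% were higher without overlap after scaling. Egr3 and Nr4a1 were highest in the library labelled Irf8 cKO 1, at 0.619 and 0.528 RPKM, and lay between 0.154 and 0.331 in the other 3. Egr2 was lowest there, at 0.384 RPKM against 0.673 to 0.958 in the others.

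The last 2 of the CD40-induced genes had opposite signs in the experiments as deposited, and after scaling only Il4i1 did. Il4i1 measured 2.65 and 5.34 RPKM in Ctrl against 3.93 and 2.78, so its scaled log2 ratio was 0.57 in experiment 1 and -0.17 in experiment 2. Over both it was -0.16 ± 0.30 as deposited (adjusted p = 0.715) and 0.20 ± 0.21 once scaled, at adjusted p = 0.752. Fscn1, which encodes the actin-bundling protein fascin, measured 1.04 and 0.810 RPKM in Ctrl against 1.12 and 0.508, with a scaled log2 ratio of 0.09. By experiment the scaled ratio of Fscn1 was 0.15 and 0.03.

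How far the 2 experiments repeated each other within the set was described without a test. After scaling, 9 of the 31 genes lay below 0 in both experiments (29%, against 33.2% of all genes tested), 8 lay above 0 in both (25.8%, against 25%) and 14 had opposite signs (45.2%, against 41.8%). Across the 31 genes the ratios of experiments 1 and 2 had a Spearman rho of 0.19 and a Pearson r of 0.18, against 0.21 and 0.21 across all 6446. Genes of 1 library share its depth and amplification and are not independent. Groups that did not overlap after scaling numbered 6 genes lower (19.4%, against 18.4%), namely Cd40, Cd83, Rela, Tnfaip3, Birc3 and Tnfrsf13c, and 3 higher (9.68%, against 13%), namely Nfkbib, Bcl3 and Egr1. As deposited, 24 lay below 0 in both experiments (77.4%, against 71.2%), 0 above in both (against 2.75%) and 7 had opposite signs (22.6%, against 26%). Also as deposited, 19 were lower without overlap (61.3%, against 44.7%) and 0 higher (against 1.19%). After scaling the shares of the set thus lay near those of all genes.

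**Figure D4:**
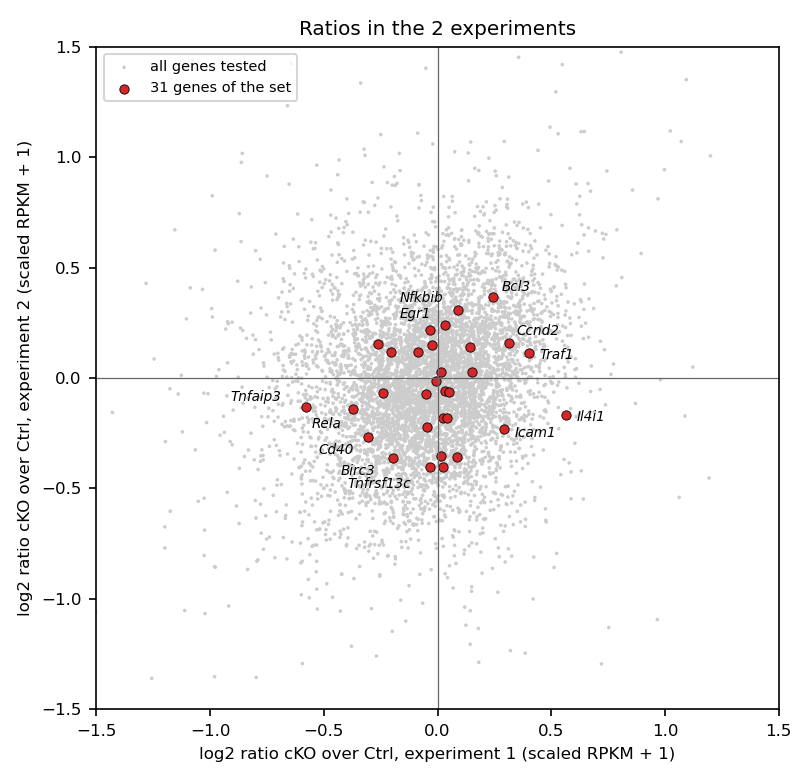
Scaled log2 ratio of Irf8 cKO over Ctrl in experiment 1 (horizontal) against experiment 2 (vertical), on log2(RPKM + 1), for all genes tested (grey, 21 outside the axes of ±1.5) and for the 31 genes of the set (red). The red points lie within the grey cloud, with Tnfaip3, Rela, Cd40, Birc3 and Tnfrsf13c below 0 in both experiments and Bcl3, Traf1, Ccnd2, Nfkbib and Egr1 above 0 in both.

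Further genes of the same biology were counted in 3 lists. Of 34 further NF-kB and CD40 signalling genes, 22 were tested and 0 passed in either direction on either scale, with a median of -0.36 as deposited and -0.02 after scaling. The ends of that list were Trim27 (-0.65), Ube2n (-0.57) and Commd1 (-0.57) as deposited, with Nfkbiz (0.02) and Rnf31 (-0.02) at the upper end. Rnf31, the catalytic part of the linear ubiquitin ligase, lay at 0.29 after scaling. Of 35 further light zone genes, 22 were tested and 0 passed, with medians of -0.29 and 0.07. Cd52, Plek and Slamf1 were the lowest at -1.01, -0.96 and -0.93 as deposited (-0.55, -0.54 and -0.54 after scaling), and Hivep3, Myb and Ebi3 the highest at 0.41, 0.26 and 0.06 (0.74, 0.61 and 0.34 after scaling). Of 24 dark zone genes all were tested and 0 passed, with medians of -0.49 and -0.12. The lowest were Gcsam, Polh and Aurkb at -0.68, -0.67 and -0.65, and the highest Foxm1, Tacc3 and Cenpe at -0.13, -0.23 and -0.24. The difference between the light and dark zone medians was not tested.

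Several features of the libraries bear on these values. Estimated library totals, in M reads, were 63.1 to 75.8, of which 7.07% (Irf8 cKO 2 by label) to 12.7% (Ctrl 1) fell in annotated exons outside Rn45s, the 45S ribosomal RNA precursor. The count of genes reaching 1 RPKM was 6566 and 6433 for Ctrl 1 and 2, and 6171 and 4845 under the Irf8 cKO label. All 12 measured germinal centre and all 8 B cell markers reached 1 RPKM in at least 1 library. As deposited, the germinal centre markers summed to 389 to 452 RPKM for Ctrl against 212 to 351. The B cell markers, also as deposited, summed to 362 to 384 against 212 to 295. Their median log2 ratios were -0.56 and -0.23 as deposited, against -0.35 for all genes tested. After scaling the medians were -0.12 and 0.21, against -0.04 for all genes tested. Of 13 T cell markers, Lck was the main transcript, Cd3e and Cd3d reached at most 0.0878 and 0.0234 RPKM, Cd3g, Cd8b1 and Icos were at 0 in all 4 libraries, and the summed level was 3.92 to 4.38 RPKM for Ctrl against 4.15 to 5.28. The 8 dendritic cell markers summed to 1.48 to 1.97 against 1.21 to 1.23 RPKM, most of it Flt3. The 13 myeloid markers summed to 10.3 to 80.3 against 2.79 to 22.0 RPKM, with Fcgr1 and Cd14 at 0 in all 4. As deposited, S100a8, S100a9 and Ngp of these passed the test as lower, with log2 ratios of -1.72, -1.67 and -1.5. So did 1 of the 8 B cell markers, Ms4a1 (-1.23). Of these 8, 5 lay above 0 and 3 below 0 in both experiments after scaling. S100a8, S100a9, Ngp and Ms4a1 did not pass after scaling, at -1.46, -1.39, -1.31 and -0.77, each below 0 in both experiments. Several members are also transcribed in cells of these other types, and the part of the markers in the ratios was not tested. In bulk RNA of a sorted gate, fewer cells of one type and less transcript per cell cannot be told apart.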

How the data were processed

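RNA sequencing of sorted germinal centre B cells was analysed, with 2 Ctrl libraries and 2 libraries labelled Irf8 cKO. The labels' protocols give RNA amplification by the Ovation v2 kit, then Nextera XT. For each experiment the authors deposited RPKM values by RefSeq gene and library, from Wardrobe per the series design text. Per the file headers the tables also hold the authors' log2 ratio and p-value, from 1 library against 1. Builds mm9 and mm10 and the tools Cufflinks 2.2, Cuffdiff, TopHat2 2.0 and DESeq are listed without roles, per the submitters' processing notes. Which aligner made these tables: not given in the sources used here. Entries sharing a symbol (2 symbols) were summed.

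The fit was limma 3.58.1 in R 4.3.3 (lmFit, eBayes with a trend, 2-sided) on log2(RPKM + 1), with the experiment as a block and 1 residual degree of freedom, for genes at 1 RPKM or more in at least 2 libraries. As deposited the prior degrees of freedom were infinite, so each SE came from genes of similar level, and after scaling they were 4.89. The second scale divides each library by its median-of-ratios factor over genes above 0 in all 4 (1.22 and 1.14 for Ctrl 1 and 2, 1.06 and 0.681 under the Irf8 cKO label). P-values were adjusted over all genes tested. The block follows the labels, which number the experiments. Deviations of same-numbered libraries from the group means correlated at 0.377 as deposited and 0.336 scaled. The fit was tested on simulated data, in which only genes well above the filter were changed and no library as a whole was shifted. It was thus not tested for changed genes near the filter. Nothing in the labels says that replicates came from separate animals, so p-values measure the spread between these libraries, which may be technical.

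Depth was estimated by looking for the read total that makes low RPKM values whole reads. At the best totals 70.8% to 73.0% were whole (tolerance 0.1 reads), and therefore no count model was run. Lengths came from GENCODE M21 transcripts by RefSeq accession (97.6% of entries, and 39 of the 40 genes), and estimated reads are approximate. Promoter windows came from RefSeq, and each printed stretch was trimmed to 60 bases before the first and 10 after the last match. No promoter entry was matched for Ccnd2, Cd40, Cd69, Cd83, Cd86, Egr1, Egr3, Ikbkb, Myc, Nfkb1 and Relb. Alternatives covered scaling, block, pseudocount, filter, variance trend and leaving out each library. Tables and plots were made with pandas 2.3.3, matplotlib 3.10.9 and numpy 2.4.6 in Python 3.11.15. Members, lists and alternatives were chosen with earlier results of these data known. Values are given per library for the 10 genes of highest mean RPKM and the 6 lowest and 6 highest fitted ratios, and for others where described. Of the further signalling, light zone and dark zone lists the 3 lowest and 3 highest tested genes are named, except 1 that is not reported here, and marker lists are given by their sums.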

Additional observations from a re-analysis of the deposited data

How the results depend on the processing

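Members were called in 1 of the 17 alternative fits with a test. That was the fit without the library labelled Irf8 cKO 1, as deposited and without the block, which called 1450 lower genes in all, 2 of them members (Traf5 and Bcl2a1b). Every fit tested 31 members except the one with no filter (40) and the one restricted to a mean of 3 RPKM or more (12). Without 1 library, called members ranged from 0 to 2, lower genes from 0 to 1450 and higher genes from 0 to 59. As deposited, lower genes numbered 0 without Ctrl 1 (31 at an unadjusted p under 0.05), 5 without Ctrl 2 and 13 without Irf8 cKO 2. Scaled, they numbered 7, 10 and 13 in that order, and 57 without Irf8 cKO 1. The median log2 ratio of the set ran from -0.55 to 0.025 over these fits on both scales. A group with 1 library left is assumed to vary like the other. With no replicate block, as deposited, limma called 19 lower and 2 higher genes against 70 and 6, and 0 members. Lower and higher genes numbered 0 and 0 after median-of-ratios scaling (380 and 278 at an unadjusted p under 0.05), 2 and 1 with that scaling and no replicate block, 3 and 1 after upper quartile scaling, 0 and 0 with no filter (1694 and 292 unadjusted), 30 and 0 at a mean of 3 RPKM or more (higher: 2 unadjusted), 277 and 6 without the variance trend, and 3 and 1 after median-of-ratios scaling over the genes tested, which was added after seeing the data. The median of the set was -0.012 after median-of-ratios scaling, with or without the block, 0.013 after upper quartile scaling and 0.023 with scaling over the genes tested. The cause was not tested. Median-of-ratios scaling, with or without the block, turned the log2 ratio positive for Icam1 (0.031), Nfkbib (0.20), Nfkbie (0.14), Traf1 (0.26), Traf6 (0.093), Map3k14 (0.062), Ikbkb (0.022), Bcl2a1d (0.016), Egr1 (0.14), Il4i1 (0.20) and Fscn1 (0.089). Upper quartile scaling did so for Icam1 (0.060), Myc (0.016), Nfkbia (0.020), Nfkbib (0.22), Nfkbie (0.17), Traf1 (0.29), Traf3 (0.013), Traf6 (0.12), Map3k14 (0.081), Ikbkb (0.047), Bcl2a1d (0.042), Egr1 (0.17), Il4i1 (0.23) and Fscn1 (0.11), and scaling over the genes tested for Icam1 (0.071), Myc (0.028), Nfkbia (0.029), Nfkbib (0.23), Nfkbie (0.18), Traf1 (0.30), Traf3 (0.023), Traf6 (0.13), Map3k14 (0.090), Ikbkb (0.057), Bcl2a1d (0.051), Egr1 (0.18), Il4i1 (0.24) and Fscn1 (0.11). As deposited, experiment 1 alone was positive for Icam1 (0.15), Nfkbie (0.00076), Traf1 (0.26), Il4i1 (0.43) and Fscn1 (0.058), and experiment 2 alone negative for Ccnd2 (-0.22) and Bcl3 (-0.069). Over the 4 fits without 1 library, the log2 ratio as deposited and then after scaling was for Cd40 -0.73 to -0.54 and -0.44 to -0.14, Cd83 -0.81 to -0.16 and -0.100 to -0.026, Cd86 -0.70 to -0.42 and -0.29 to -0.019, Icam1 -0.63 to 0.032 and -0.12 to 0.18, Myc -0.50 to -0.21 and -0.19 to 0.16, Ccnd2 -0.15 to 0.17 and 0.065 to 0.40, Nfkb1 -0.64 to -0.18 and -0.17 to 0.015, Nfkb2 -0.65 to -0.24 and -0.39 to 0.051, Rel -0.75 to -0.37 and -0.32 to 0.050, Rela -0.72 to -0.43 and -0.31 to -0.20, Nfkbia -0.55 to -0.020 and -0.087 to 0.076, Nfkbib -0.13 to 0.0087 and 0.087 to 0.31, Nfkbie -0.41 to -0.016 and -0.085 to 0.37, Tnfaip3 -0.71 to -0.58 and -0.55 to -0.16, Tnip1 -0.64 to -0.26 and -0.38 to -0.0049, Traf1 -0.31 to 0.088 and 0.028 to 0.49, Traf3 -0.40 to -0.18 and -0.092 to 0.071, Traf5 -0.84 to -0.047 and -0.34 to 0.060, Traf6 -0.40 to -0.072 and 0.025 to 0.16, Map3k14 -0.20 to -0.14 and -0.067 to 0.19, Ikbkb -0.37 to -0.18 and -0.079 to 0.12, Chuk -0.52 to -0.20 and -0.15 to 0.068, Bcl3 -0.13 to 0.19 and 0.27 to 0.34, Birc2 -0.75 to -0.14 and -0.13 to -0.0061, Birc3 -0.83 to -0.50 and -0.46 to -0.10, Bcl2a1b -0.83 to 0.12 and -0.47 to 0.36, Bcl2a1d -0.46 to -0.076 and -0.092 to 0.12, Egr1 -0.40 to -0.077 and 0.042 to 0.23, Il4i1 -0.56 to 0.24 and -0.22 to 0.62, Fscn1 -0.35 to 0.14 and -0.029 to 0.21 and for Tnfrsf13c -1.05 to -0.31 and -0.35 to -0.087. Without Irf8 cKO 1 the scaled value of Tnfaip3 was -0.16 against -0.36 with all libraries, and without Irf8 cKO 2 the deposited value of Cd83 was -0.16 against -0.49.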
